A study of Mus musculus with 30 samples.

Results

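The 10 genes described here encode ligands and receptors through which antigen-presenting cells steer T cells: Cd80, Cd86, Icosl, Cd40 and Cd83 on the costimulatory side, and Cd274, Pdcd1lg2, Lgals9, Havcr2 and Vsir on the checkpoint side. They were chosen by name from the gene symbols of the deposited table, and all 10 were found among its 30952 genes. RNA was sequenced from microglia and astrocytes sorted from spinal cords of female C57BL/6 mice. There were 4 naive mice, 6 mice with experimental autoimmune encephalomyelitis (EAE) that received vehicle (20% Captisol; EAE-vehicle) and 5 EAE mice that received the RIPK1 kinase inhibitor GSK'547 at 50 mg/kg BID (EAE-RIPK1inh), and each mouse group gave as many libraries of each cell type, 30 in all. EAE is a mouse model of multiple sclerosis, here induced with a MOG peptide. Both EAE groups were immunized, and dosing by oral gavage began at a clinical score of about 1 and went on for 3 days; the sources used here give no dosing for the naive mice. Per the study's methods, immunized mice were 8 to 10 weeks old, microglia were gated as CD11b+ CD45-intermediate CX3CR1+ cells and astrocytes as GLAST+ cells without CD11b, CD45 or CD140a.

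T cells need a signal besides antigen to become fully active. CD80 and CD86 deliver it through CD28 and withhold it through CTLA-4, ICOSL acts through ICOS, and CD40 on the presenting cell is engaged by CD40L of the T cell. PD-L1 and PD-L2 (Cd274, Pdcd1lg2) restrain T cells through PD-1, VISTA (Vsir) is an inhibitory receptor and ligand, and galectin-9 (Lgals9) is a ligand of TIM-3 (Havcr2). Microglia are the resident macrophages of the spinal cord, and interferon gamma from T cells is a known inducer of PD-L1.

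Promoters are shown for the gene called higher with EAE in both cell types (Cd274), 2 checkpoint genes called lower in microglia (Havcr2, Vsir) and Lgals9, whose window held the most matches. RefSeq (GRCm38.p6) promoters were found for 7 of the 10 genes. Each runs 5′ to 3′ from 250 bases before to 50 bases after the start site, on the plus strand at chr19:29367188-29367487 for Cd274, chr11:46454681-46454980 for Havcr2 and chr10:60346601-60346900 for Vsir, and on the minus strand at chr11:78984875-78985174 for Lgals9. Capitals mark the letters searched for, on both strands.
Cd274 promoter: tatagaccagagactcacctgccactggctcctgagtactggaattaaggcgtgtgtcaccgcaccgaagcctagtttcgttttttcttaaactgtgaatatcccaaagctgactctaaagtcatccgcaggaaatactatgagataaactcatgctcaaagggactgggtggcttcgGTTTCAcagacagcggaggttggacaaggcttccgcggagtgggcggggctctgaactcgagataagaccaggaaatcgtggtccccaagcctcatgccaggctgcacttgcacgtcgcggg
Lgals9 promoter: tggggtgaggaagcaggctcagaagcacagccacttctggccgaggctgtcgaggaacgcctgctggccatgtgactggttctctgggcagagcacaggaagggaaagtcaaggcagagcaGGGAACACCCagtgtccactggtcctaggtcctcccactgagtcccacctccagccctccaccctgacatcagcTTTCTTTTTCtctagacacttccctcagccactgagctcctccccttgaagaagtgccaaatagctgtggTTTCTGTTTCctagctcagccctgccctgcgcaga
Havcr2 promoter: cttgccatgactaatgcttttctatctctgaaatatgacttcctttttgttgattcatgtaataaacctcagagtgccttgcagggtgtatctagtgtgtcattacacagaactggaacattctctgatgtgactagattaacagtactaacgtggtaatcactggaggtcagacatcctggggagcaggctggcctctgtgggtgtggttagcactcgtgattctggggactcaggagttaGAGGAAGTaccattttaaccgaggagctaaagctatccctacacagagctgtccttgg
Vsir promoter: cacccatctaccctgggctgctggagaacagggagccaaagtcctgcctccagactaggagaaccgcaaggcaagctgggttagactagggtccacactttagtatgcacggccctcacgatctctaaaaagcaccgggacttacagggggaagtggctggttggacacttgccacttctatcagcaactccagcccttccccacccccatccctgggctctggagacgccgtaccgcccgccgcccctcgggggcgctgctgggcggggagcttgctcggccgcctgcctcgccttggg
The letters were chosen after these sequences had been read, and those for the PU.1 site and the short IRF element were included with their matches already seen, so the matches are a description and not the yield of a search. GTTTCA (short IRF element) was in the Cd274 window, at position -72 from the start site, and in 12.1% of all 32851 promoters. GAAA, any 2 bases and GAAA again (interferon-stimulated response element) was in the Lgals9 window at 2 places and in 3.44% of promoters, and GGG, any 2 bases, TT, any 1 base and CC (NF-kB site) was there at 1 place and in 4.79%. GAGGAAGT (PU.1 site) was in the Havcr2 window and in 3.20% of promoters. The Vsir window held none of these 4 sets of letters, and each set was in 1 of the 7 windows found for these genes.

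Levels are log2 FPKM (fragments scaled to exon length and to the size of the library), as deposited. They had also been normalized so that all 30 libraries hold the same sorted values. The number of genes with signal ranged from 8710 to 20398 in microglia libraries and from 6728 to 22981 in astrocyte libraries, and read depth is unknown. Replicates differed more in astrocytes: Pearson's r across 10781 genes, which are not independent, ran from 0.82 to 0.95 between microglia EAE-vehicle libraries and from 0.52 to 0.77 between astrocyte ones. Sorted cells carried their own markers, with a mean over 10 microglia markers of at least 7.27 in microglia libraries and over 8 astrocyte markers of at least 7.78 in astrocyte libraries. Markers of T cells and of monocytes and neutrophils were also present in EAE, as given with each comparison. No label says more of the replicates than that they are separate samples, so p-values measure the spread between these libraries.

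In naive microglia, most of these genes were well expressed while the PD-1 ligands and Cd40 were low. Vsir had the highest mean at 8.80 ± 0.60 (SD, n = 4), followed by Cd86, Cd83, Lgals9 and Havcr2 down to 7.20 ± 0.61, and the ranges of neighbours in that order overlapped. Icosl (5.39 ± 0.97) and Cd80 (3.44 ± 0.56) stood apart below them, Cd274 averaged 2.23 ± 1.17, and Cd40 and Pdcd1lg2 had no signal in any naive microglia library. In EAE-vehicle microglia Cd83, Lgals9 and Cd86 came first at 7.82 to 7.99, apart from Vsir at 6.19 ± 0.38, and Cd274 had moved up to 5.74 ± 0.21, apart from Icosl below it.

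**Figure D1:**
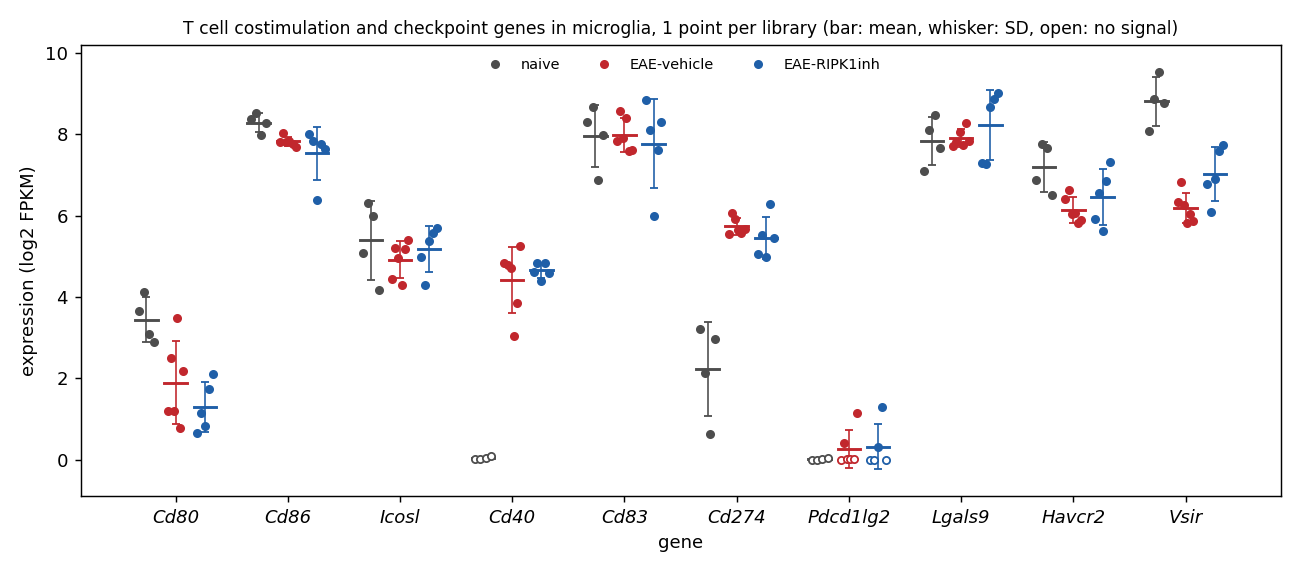
Expression (log2 FPKM) of the 10 genes in microglia, 1 point per library, grouped by gene and coloured by treatment, with the mean (bar) and SD (whisker); open points had no signal. Cd40 and Cd274 are higher in all EAE libraries than in all naive ones, Vsir is lower, and Cd86, Cd83 and Lgals9 stay near 8 in most libraries.

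Both arms of this system differed between EAE-vehicle and naive microglia libraries. The checkpoint ligand Cd274 and the costimulatory receptor Cd40 were higher, and the checkpoint receptor Vsir was lower. Immunization, disease and vehicle dosing come together in this comparison and cannot be told apart. In the EAE-vehicle against naive comparison, 5 of the 10 genes were called at a fold change over 1.5 and an unadjusted p under 0.05, of which 2 were higher and 3 lower; of all 28958 genes tested, 12% were called, 6.13% as higher and 5.86% as lower. Of the 10, 3 passed an adjusted p of 0.05, against 3.92% of genes tested. The median log2 fold change was -0.22 over the 10 genes and -0.02 over all genes.

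Cd40 (chromosome 2, 165055627 to 165072948), the receptor through which T helper cells license presenting cells, had no signal in the 4 naive microglia libraries. In EAE-vehicle microglia it ran from 3.04 through a median of 4.75 to 5.26, so every EAE library lay above every naive one. The means differed by 4.39 on the log2 scale (SE 0.36, limma, adjusted p = 3.66e-06; exact permutation p = 0.00476, two-sided, the smallest that 210 splits allow); since the naive group was without signal, this is no fold.

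Cd274 (chromosome 19, 29367455 to 29388095), which encodes PD-L1, was 3.20, 2.12, 0.62 and 2.96 in naive microglia. In EAE-vehicle microglia it ran from 5.54 through 5.66 to 6.06. The groups did not overlap, as was so for 2.94% of all genes in this direction, and the spread among diseased mice was narrow. The rise was 3.51 on the log2 scale, 11.4-fold in the deposited values (SE 0.42, limma, adjusted p = 1.60e-04; exact permutation p = 0.00476). The offset before the logarithm is not given in the sources used here. Naive replicate 3, at 0.62, lay near the values without signal, which reached 0.46 in that library. The annotation marks Cd274 and Vsir as overlapping another gene on the opposite strand (AC119228.1 and Cdh23) and Pdcd1lg2 likewise (A930007I19Rik); whether counting used strand is not given in the sources used here.

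Vsir (chromosome 10, 60346851 to 60372684), which encodes VISTA, was 8.07, 8.87, 9.52 and 8.75 in naive microglia and ran from 5.80 through 6.14 to 6.83 in EAE-vehicle microglia. All diseased libraries lay below all naive ones, as for 2.21% of genes in this direction. It fell by 2.62 on the log2 scale (SE 0.34, limma, adjusted p = 3.45e-04; exact permutation p = 0.00476). Havcr2 (chromosome 11, 46454935 to 46481255), which encodes TIM-3, was 6.86, 7.76, 7.66 and 6.50 in naive microglia and from 5.82 through 6.05 to 6.63 in EAE-vehicle microglia, so that a single naive library reached into the diseased range. Its difference of -1.06 (SE 0.34) was called at p = 0.00741 but had an adjusted p of 0.118 (limma; exact permutation p = 0.00952).

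Cd80 and Cd86, the paired ligands of CD28 and CTLA-4, differed in level. Both had lower means in EAE-vehicle than in naive microglia, and whether their changes differed was not tested. Cd80 (chromosome 16, 38455561 to 38496335) was 3.65, 4.13, 3.10 and 2.88 in naive microglia and spread from 0.78 through 1.69 to 3.49 in EAE-vehicle microglia; the groups overlapped. The difference of -1.55 (SE 0.51) was called at p = 0.00897, with an adjusted p of 0.135 (limma; exact permutation p = 0.0381). Cd86 (chromosome 16, 36603869 to 36666081), the more abundant of the pair, was 8.38, 8.51, 7.97 and 8.28 in naive microglia and from 7.68 through 7.80 to 8.04 with EAE. Its difference of -0.46 (95% interval -1.01 to 0.08, limma p = 0.0906) was not called, while the exact permutation test gave p = 0.00952.

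The other 4 genes were not called in EAE microglia, and these data bound their change only loosely. Icosl (chromosome 10, 78069302 to 78083913), the ligand of ICOS, was 5.08, 6.31, 5.99 and 4.16 in naive and 4.28 to 5.41 in EAE-vehicle microglia, a difference of -0.48 (95% interval -1.35 to 0.39) that was -0.88 and called without naive replicate 4, one of 3 libraries with few genes with signal. Lgals9 (chromosome 11, 78962974 to 78984946) was 7.10, 8.11, 8.46 and 7.66 against 7.71 to 8.28, a difference of 0.07 (95% interval -0.72 to 0.85). Both groups overlapped for either gene. Cd83 (chromosome 13, 43784775 to 43803132), a surface marker of activated presenting cells, was 8.30, 8.67, 6.88 and 7.97 against 7.59 to 8.58, a difference of 0.03 (95% interval -0.99 to 1.05). Pdcd1lg2 (chromosome 19, 29410919 to 29471161), which encodes PD-L2, had signal in 2 of 6 EAE-vehicle microglia libraries and reached 1.15 at most, so no fold is given. The PD-1 ligands thus had unlike levels in EAE microglia, with Cd274 at 5.54 or more in every EAE-vehicle library.

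Markers of microglia, and some of monocytes and neutrophils, differed between the same groups. The mean over 10 microglia markers was 9.83 to 10.6 in naive and 7.27 to 7.88 in EAE-vehicle microglia, and all 10 markers were called lower, so that Vsir, Havcr2 and Cd80 fell alongside them. The mean over 7 monocyte and neutrophil markers was 2.47 to 6.46 in naive and 3.95 to 7.74 in EAE-vehicle microglia, with 3 of 7 called higher, while 7 T cell markers averaged 0.80 or less in both groups. The part of these markers in the results was not tested, and in sorted bulk RNA fewer cells of a type and less RNA per cell cannot be told apart.

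**Figure D2:**
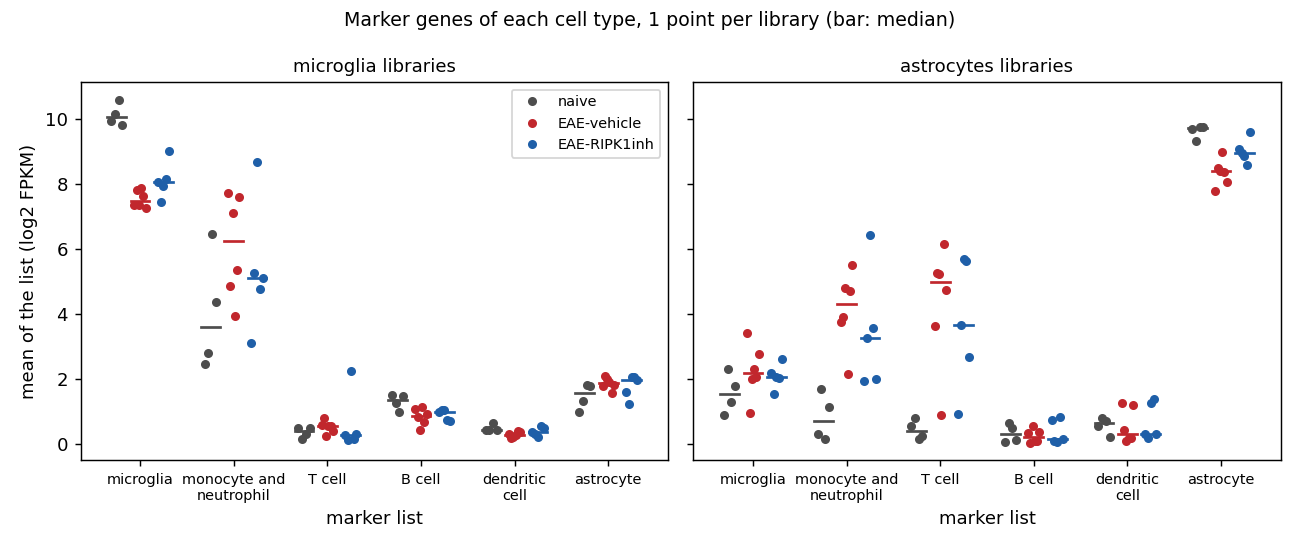
Mean expression (log2 FPKM) of each list of cell type markers, 1 point per library, in microglia libraries (left) and astrocyte libraries (right), with the median of each group as a bar. T cell markers reach 6.15 in EAE-vehicle astrocyte libraries and stay at 0.80 or below in naive ones, and microglia markers are lower in EAE microglia than in naive microglia.

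Genes of the interferon gamma route moved with Cd274 in EAE microglia in part. Of 8 genes listed for this route and for PD-L1 stability, 2 were called higher and 2 lower, and all 4 passed the adjusted threshold. Irf1, a transcription factor induced by interferon gamma, rose by 2.38 (SE 0.62; limma adjusted p = 0.0454) from a naive mean of 4.48 ± 1.75 to 6.85 ± 0.30. Ifngr1, a subunit of the receptor, fell by 2.00 (SE 0.32), and Cmtm6, which protects PD-L1 protein from degradation, fell by 1.56 (SE 0.36; limma adjusted p = 0.0222). The list's median difference was 0.20.

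Among the other lists, 13 further costimulatory and coinhibitory ligands tested in microglia held 3 genes called higher and 2 lower with a median of 0.34. Cd276, which encodes B7-H3, passed the adjusted threshold and fell by 2.31 (SE 0.37; limma adjusted p = 0.00168). Of 8 genes of CD40 signaling, 0 were called higher and 2 lower (median -0.15), although Cd40 itself rose. Of 13 receptors found on T cells for these ligands, 0 were called at an unadjusted p under 0.05 and the fold cutoff in either direction (limma, median 0.03).

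The next comparison asks what RIPK1 kinase inhibition changed in EAE. In microglia, 1 of the 10 genes was called with RIPK1inh, as higher than with vehicle, against 1.76% of the 28958 genes tested (1.06% as higher), and none passed an adjusted p of 0.05 by limma, at which 0.00345% of all genes were called. The median difference was 0.14 over the 10 genes and -0.02 over all genes. This comparison shares the EAE-vehicle libraries with the one above.

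The gene called was Vsir, which was 6.79, 6.08, 6.90, 7.60 and 7.74 in EAE-RIPK1inh microglia against 5.80 to 6.83 with vehicle. In 3 of the 5 libraries it lay above all vehicle libraries, and the groups overlapped. The difference was 0.83 (SE 0.32, limma p = 0.0204, adjusted p = 0.930; exact permutation p = 0.0325, two-sided), and without EAE-RIPK1inh replicate 4 or 5 it was 0.69 or 0.65 and no longer called. The microglia markers were at 7.45 to 9.01 in these libraries, with 3 of 10 called higher; their part in the Vsir difference was not tested.

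The 2 genes that rose in EAE were not called with RIPK1inh. Cd274 was 5.05, 5.53, 4.97, 6.28 and 5.44 with RIPK1inh, a difference of -0.28 (95% interval -1.12 to 0.56), and Cd40 was 4.61, 4.83, 4.39, 4.84 and 4.60, a difference of 0.24 (95% interval -0.48 to 0.95). Both genes lay above every naive library, and Cd40 lay inside the vehicle range. Cd274 lay below its vehicle range of 5.54 to 6.06 in every EAE-RIPK1inh library except replicate 4, at 6.28, which lay above it. Among the genes that were lower in EAE, Havcr2 was 5.91, 6.55, 5.61, 6.85 and 7.31 (difference 0.31, 95% interval -0.37 to 0.99) and Cd80 was 0.65, 1.15, 0.82, 1.74 and 2.10 (difference -0.60, 95% interval -1.63 to 0.43).

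The abundant costimulatory genes were not called either. Cd86 was 8.00, 7.84, 6.39, 7.76 and 7.65 with RIPK1inh, a difference of -0.29 (95% interval -0.81 to 0.22) that was -0.01 without EAE-RIPK1inh replicate 3, the lowest library. Cd83 was 8.84, 8.09, 5.98, 7.61 and 8.30 (difference -0.22, 95% interval -1.18 to 0.74), with the same library lowest, and it was 0.23 without it. That library also stood apart in markers of other cells: its mean was 2.26 over 7 T cell markers, all 7 with signal, against 0.11 to 0.32 in the other 4 libraries, and 8.68 over the monocyte and neutrophil markers against 3.11 to 5.25. Their part in its Cd86 and Cd83 values was not tested. Icosl was 4.98, 4.30, 5.36, 5.56 and 5.70 (difference 0.27, 95% interval -0.55 to 1.08), of which 2 libraries lay above all vehicle ones. Lgals9 fell into 2 libraries at 7.28 and 3 at 8.66, 8.87 and 9.01, on either side of the vehicle range of 7.71 to 8.28 (difference 0.32, 95% interval -0.42 to 1.06). Pdcd1lg2 had signal in 2 of 5 libraries and reached 1.29. In the 4 other pathway lists, 0 genes were called in this comparison (limma); at an unadjusted p under 0.05 without the fold cutoff there was 1, Cd200 at -0.57, named after its values were seen.

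**Figure D3:**
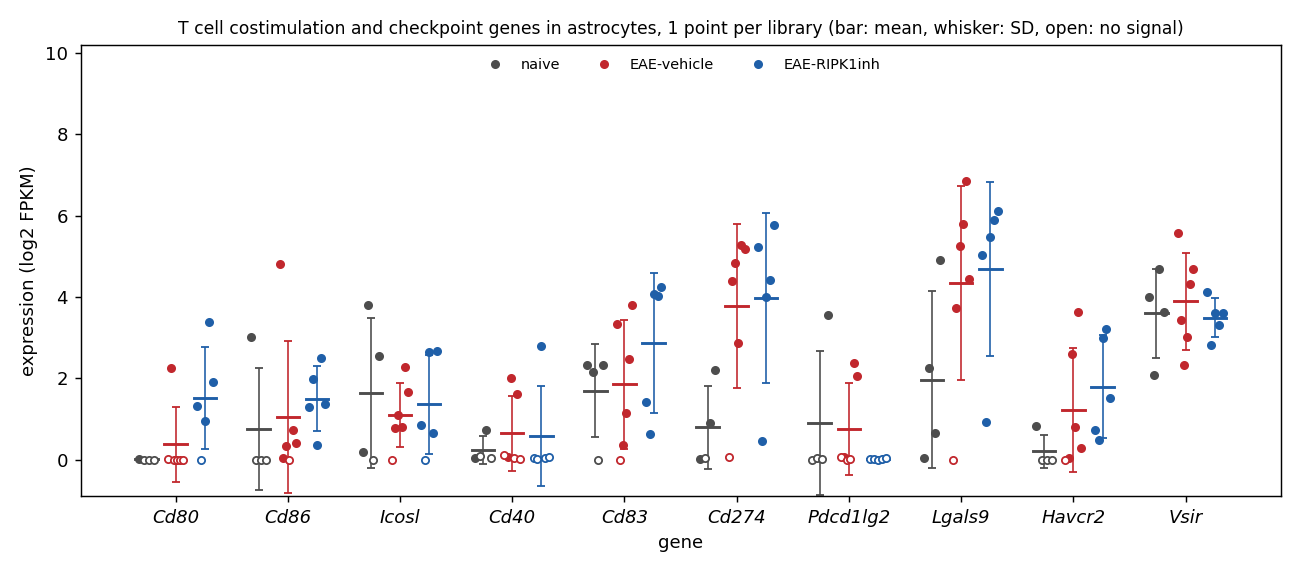
Expression (log2 FPKM) of the 10 genes in astrocytes, 1 point per library, grouped by gene and coloured by treatment, with the mean (bar) and SD (whisker); open points had no signal. Vsir is the one gene with signal in all 15 libraries, and Cd274 and Lgals9 are high in most EAE libraries but not in all.

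In astrocytes these genes were low and uneven, with Vsir the only one of the 10 with signal in all 15 libraries. In the EAE-vehicle against naive comparison 1 of 10 was called, against 6.71% of the 30718 genes tested (2.69% as higher), and none passed an adjusted p of 0.05 by limma, against 0.579% of genes. That gene was Cd274. It was 0.02, 0.04 (without signal), 0.90 and 2.21 in naive astrocytes. In EAE-vehicle astrocytes it ran from 0.07 through 4.61 to 5.27, where 5 of 6 libraries lay above all naive ones. The remaining library, replicate 1, had no signal for Cd274. It had only 6728 genes with signal, and its values without signal reached 2.74. The difference was 2.98 (SE 1.12, limma p = 0.0177, adjusted p = 0.474; exact permutation p = 0.0381, two-sided). Without naive replicate 1 it was 2.72 and not called, and without EAE-vehicle replicate 1 it was 3.72.

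Lgals9 was 0.04, 2.26, 0.64 and 4.90 in naive astrocytes and ran from 0.00 through 4.85 to 6.86 in EAE-vehicle astrocytes. The groups overlapped at both ends, and the difference of 2.38 (95% interval -0.47 to 5.24) was not called. It was 3.25 and called without EAE-vehicle replicate 1, the library with the fewest genes with signal (6728), and 3.36 and called without naive replicate 4, the highest naive library. Vsir was 3.99, 2.09, 4.68 and 3.62 in naive and 2.32 to 5.57 in EAE-vehicle astrocytes, a difference of 0.30 (95% interval -1.09 to 1.69) whose sign turned without naive replicate 2 (-0.21) or EAE-vehicle replicate 1 (-0.04). Havcr2 had signal in 1 of 4 naive and 5 of 6 EAE-vehicle libraries and reached 3.63. Cd80, Cd86, Cd40 and Pdcd1lg2 were without signal in 2 or 3 of the 4 naive libraries, and Cd83 and Icosl ran from 0.00 to 3.81 and from 0.00 to 2.27 with EAE.

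T cell markers were called higher in the same astrocyte comparison for 5 of 7 genes, and 1 passed adjustment. Their mean was 0.17 to 0.80 in naive and 0.91 to 6.15 in EAE-vehicle astrocytes, and Cd3e, a subunit of the T cell receptor complex, had signal in 1 of 4 and 6 of 6 libraries. Of 14 receptors on T cells for these ligands, 5 were called higher and 0 passed adjustment (median 1.77). Monocyte and neutrophil markers were at 0.17 to 1.68 and 2.16 to 5.50, with 5 of 7 called higher and 0 past adjustment. Microglia markers were at 0.89 to 2.33 and 0.95 to 3.43. The astrocytes' own markers were at 9.32 to 9.76 in naive and 7.78 to 9.00 in EAE-vehicle astrocytes; 5 of 8 were called lower, 3 of them past adjustment, and 1 higher, with a median of -1.46. The part of these markers in the Cd274 and Lgals9 values was not tested.

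Irf1 rose in astrocytes as well, by 4.38 (SE 0.87; limma adjusted p = 0.0368), and 2 of the 8 genes of its list were called, both higher. Among 14 further ligands 1 was called higher and 1 lower. Cd48, a ligand of CD2 family receptors carried by most leukocytes, had signal in 1 of 4 naive libraries, at 0.07, and in 6 of 6 EAE-vehicle astrocyte libraries, where it reached 6.27 (limma adjusted p = 0.0437).

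With RIPK1inh, 0 of the 10 genes were called in astrocytes (limma; 0 also at an unadjusted p under 0.05), against 3.02% of genes tested called and 3.25% under that p. Cd274 was 5.23, 0.45, 4.01, 4.42 and 5.75, a difference from vehicle of 0.21 (95% interval -2.03 to 2.44). Its sign turned when any 1 of 3 libraries was left out, among them EAE-vehicle replicate 1, without which it was -0.53. Cd80 was 1.31, 0.00, 0.95, 3.38 and 1.90, with signal in 4 of 5 libraries against 1 of 6 with vehicle. Its difference was 1.13 (95% interval -0.08 to 2.35; limma p = 0.0657, exact permutation p = 0.132, two-sided), and it was called without EAE-vehicle replicate 2, the one vehicle library with signal, at 1.51, and without EAE-RIPK1inh replicate 2, at 1.51. Vsir was 4.12, 2.82, 3.59, 3.32 and 3.61 (difference -0.40, 95% interval -1.71 to 0.90). T cell markers were at 0.93 to 5.68 and monocyte and neutrophil markers at 1.93 to 6.44 in these libraries, and their part was not tested. The intervals are wide enough to hold changes of over 1.5-fold in either direction for Cd274 and Vsir.

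**Figure D4:**
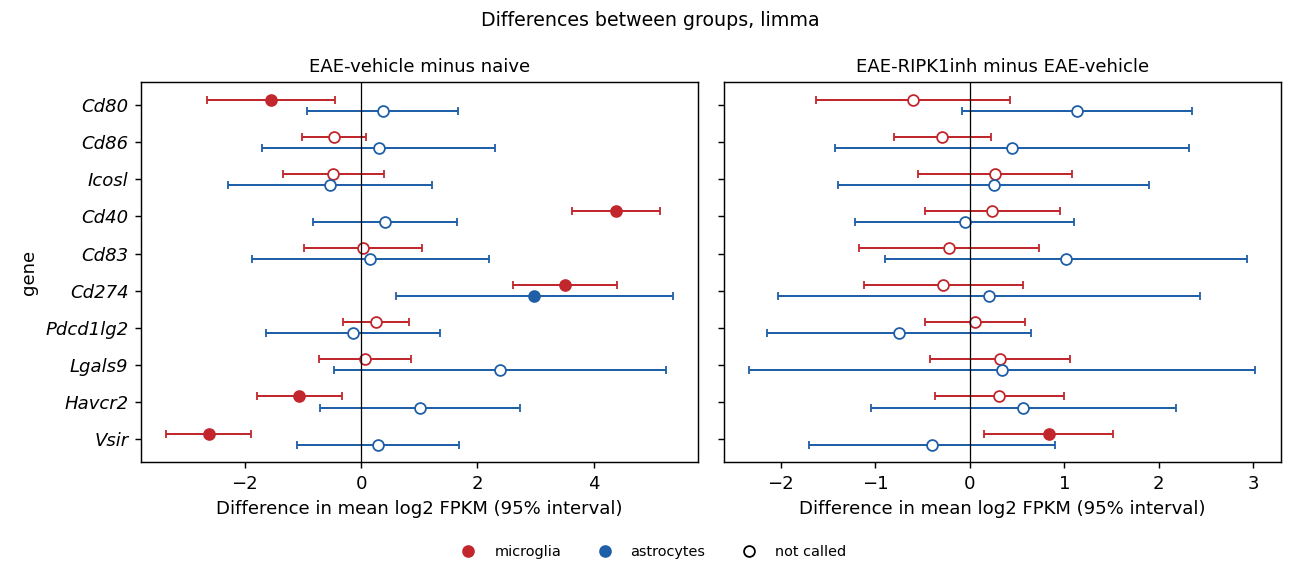
Differences in mean log2 FPKM of the 10 genes with 95% intervals (limma) for EAE-vehicle minus naive (left) and EAE-RIPK1inh minus EAE-vehicle (right), in microglia and astrocytes; filled points were called, and differences that rest on groups without signal, as for Cd40 and Pdcd1lg2, are no folds. In EAE-vehicle microglia the intervals of Cd40, Cd274, Vsir, Havcr2 and Cd80 leave out 0, and intervals in astrocytes are wider throughout.

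The effect of EAE differed between the cell types for 4 of the 10 genes, against 8.68% of 30952 genes tested. This was 1 fit of all 30 libraries, taken as independent. The study sorted both cell types from spinal cords of these mice, and the labels do not say which libraries share a mouse. For 2 genes the difference passed adjustment, against 0.982% of genes. Cd40 rose by 3.97 more in microglia (SE 0.73, limma adjusted p = 0.00387), with signal in 3 of 6 EAE-vehicle astrocyte libraries and a highest value there of 2.01. For Vsir the effect was lower by 2.91 in microglia (limma difference -2.91, SE 0.72, adjusted p = 0.0442). Havcr2 (-2.08, SE 0.87) and Cd80 (-1.92, SE 0.81) were called but had adjusted p of 0.402 and 0.412 (limma), and neither was called without microglia naive replicate 2. For Cd274 the difference was 0.53 (95% interval -1.98 to 3.04), so these data cannot tell whether it rose by like amounts in both.

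The effect of RIPK1inh differed between the cell types for 1 of the 10 genes, Cd80, at -1.73 (SE 0.76, limma adjusted p = 0.948), against 3.15% of genes tested. Leaving out any one of 6 libraries ended this call, among them astrocytes EAE-RIPK1inh replicate 4, without which it was -1.26. For Vsir the difference was 1.23 (95% interval -0.15 to 2.62).

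Microglia expressed most of the set at higher levels than astrocytes in every mouse group, by the same fit with libraries taken as independent. In naive mice 7 of 10 genes were called, all higher in microglia, against 10% of all genes in this direction, and the same 7 did not overlap between the cell types (6.21% of genes). Differences there ran from 3.44 for Cd80 (SE 0.63) to 7.53 for Cd86 (SE 0.75), all with adjusted p of 3.10e-04 or less by limma. In EAE-vehicle mice 9 were called, against 12.4%, with Cd274 (1.97, SE 0.77, limma adjusted p = 0.0977) and Cd40 (3.77, SE 0.46) added and Pdcd1lg2 the exception; without astrocytes EAE-vehicle replicate 1 Cd274 was at 1.23 and not called. In EAE-RIPK1inh mice 7 were called, against 11.7%; Cd80 was not, at -0.22 (95% interval -1.37 to 0.94), nor was Cd274 at 1.48 (95% interval -0.25 to 3.22). Havcr2 differed by 6.99 (SE 0.67), 4.91 (SE 0.55) and 4.66 (SE 0.60) in naive, EAE-vehicle and EAE-RIPK1inh mice, and Vsir by 5.21 (SE 0.56), 2.29 (SE 0.46) and 3.53 (SE 0.50).

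Across the 15 microglia libraries, the protein-coding genes whose pattern was most like each member were read from 9704 genes, as a description, since all points share the contrast between naive and EAE mice. For Cd274 these were Gbp7 (Pearson's r = 0.98), Prdx1 (0.97) and Nlrc5 (0.96), and for Cd40 they were H2-Aa (0.98), Serpina3f (0.97) and Acod1 (0.97). Gbp7 encodes a guanylate-binding protein, Nlrc5 an activator of MHC class I genes, and H2-Aa a chain of MHC class II. For Vsir they were Mef2a (0.97), a transcription factor, Slco2b1 (0.97) and Pttg1ip (0.96). The nearest genes were Trf for Cd86 (0.93), Rbsn for Havcr2 (0.93), Slc35c2 for Lgals9 (0.95), Csnk1d for Icosl (0.90), Xpo7 for Cd80 (0.89) and Pon3 for Cd83 (0.87).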

How the data were processed

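Per the study's methods, reads were quantified in OmicSoft Array Studio (version 10.1.1.3), and the authors deposited log2 FPKM values, normalized so that all 30 libraries hold the same sorted values. This fixes each library's total, so a change in overall RNA cannot be seen. Aligner, annotation release and offset are not given in the sources used here. Genes without signal hold the lowest values of a library, ordered by table row, and were recognised by that order.

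Groups were compared with limma 3.58.1 (R 4.3.3; lmFit, eBayes with trend) over all genes, without pairing: the methods name a paired t test, and the labels do not say what pairs the mice. Genes were called at a fold change over 1.5 and unadjusted p under 0.05, the study's cutoff; adjusted p is Benjamini-Hochberg over all genes tested. Exact permutation tests went over libraries. Ranges between groups were compared with values without signal set to 0. The 10 positions matched a GRCm38 annotation. List genes are named if among the 3 largest rises or falls of their list with an adjusted p under 0.05; an item that this rule and the promoter search cover is left out of the text but stays in the list counts. Members and lists were chosen with earlier results of these data known. Cd3e and the libraries named singly were picked after their values were seen. Alternatives covered filters, offset, scaling, library weights, samples in the fit, a replicate block and left-out libraries.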

Additional observations from a re-analysis of the deposited data

Results flagged for a closer look

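Groups of 4 to 6 libraries were examined for a library far from the others by Dixon's ratio, with values without signal set to 0 and groups spanning under 0.1 skipped. Of 56 groups of a gene in a cell type and treatment, 12 held such a library. Chance gives about 1 in 20, a rate that does not hold where a single library had signal, since the ratio is then 1 by construction; this was so for 5 of the 12. In microglia these were Cd86 in EAE-RIPK1inh replicate 3 (6.39, others 7.65 to 8.00), and Pdcd1lg2 in EAE-vehicle replicate 6 (1.15) and EAE-RIPK1inh replicate 4 (1.29). In naive astrocytes they were Pdcd1lg2 in replicate 4 (3.56), Cd86 in replicate 1 (3.01), Havcr2 in replicate 1 (0.82), Cd40 in replicate 3 (0.74) and Cd83 in replicate 3, without signal and set to 0 (others 2.14 to 2.32). In EAE-vehicle astrocytes they were Cd86 in replicate 1 (4.81, others at most 0.73) and Cd80 in replicate 2 (2.25), and in EAE-RIPK1inh astrocytes Cd40 in replicate 3 (2.78) and Lgals9 in replicate 2 (0.93, others 5.03 to 6.10).

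The effect of EAE differed between microglia and astrocytes, by an interaction term past adjustment, for Cd40 (3.97) and Vsir (-2.91).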

How the results depend on the processing

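In EAE microglia, 5 genes were called under each of the 8 alternative settings and 5 to 6 with a library left out. The share over all genes was not the same throughout. It went from 3473 of 28958 called to 3017 of 10413 with the filter on low values, which leaves out Pdcd1lg2. With a library left out, calls over all genes ran from 3153 of 28941 to 3617 of 28769. The counts for microglia against astrocytes ran from 7 to 7, 8 to 9 and 7 to 8 in naive, EAE-vehicle and EAE-RIPK1inh mice with a library left out. Smaller counts moved. With library quality weights, the counts called were 2 for RIPK1inh in microglia, 3 for EAE in astrocytes, 1 for RIPK1inh in astrocytes and 2 for the difference of the inhibitor effect, while over all genes calls went from 511 to 2730 of 28958 for RIPK1inh in microglia and from 2060 to 3698 of 30718 for EAE in astrocytes. With the filter on low values or with libraries centred on their median over protein-coding genes with a mean of at least 1, 2 were called for EAE in astrocytes. Over all genes, 1770 of 11243 were called with the filter, which leaves out Cd40 and Pdcd1lg2 among others. With centring it was 2067 of 30952. With only the groups compared, 0 were called for the difference of the inhibitor effect. Without the 3 libraries with under 9000 genes with signal, an alternative chosen after seeing the data, 2 were called for EAE in astrocytes and 2 for the difference of the inhibitor effect. Over all genes, 2116 of 30668 were then called for EAE in astrocytes. With a library left out, counts ran from 0 to 1 for RIPK1inh in microglia, 0 to 2 for EAE in astrocytes, 0 to 1 for RIPK1inh in astrocytes, 2 to 5 for the difference of the EAE effect and 0 to 2 for that of the inhibitor effect. Calls over all genes then ran from 365 of 28918 to 953 of 28900 for RIPK1inh in microglia. For astrocytes they ran from 1763 of 30704 to 2208 of 30689 with EAE and from 800 of 30666 to 1087 of 30684 with RIPK1inh. The cause was not tested.

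With the replicate number as a block, 0 genes were called for RIPK1inh in microglia (Vsir 0.77) and 0 for EAE in astrocytes (Cd274 2.25). Libraries with the same number did not deviate together throughout: r ran from -0.08 to 0.15 over 9 pairs of microglia libraries and from -0.14 to 0.06 over 9 of astrocytes, and from -0.03 to 0.10 over 15 pairs of a microglia with an astrocyte library; 3, 4 and 6 of these correlated best with their own number. The numbers were not used to pair libraries, so comparisons between cell types take the 30 as independent; their counts with the block were 7, 9 and 7, as without it.

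Differences that changed sign were not called. In EAE microglia these were Cd83 with centred libraries (-0.0054) and weights (-0.21) and Lgals9 with the block (-0.066); Cd83 ran from -0.33 to 0.27 and Lgals9 from -0.18 to 0.28 with a library left out. With RIPK1inh in microglia, Cd83 was 0.072 with weights and ran from -0.49 to 0.23 with a library left out, Pdcd1lg2 from -0.19 to 0.23 and Cd40 from -0.039 to 0.41. In EAE astrocytes, Vsir was -0.20 with weights, -0.54 without the 3 libraries and -0.21 to 0.66 with a library left out, and Cd80 ran from -0.0031 to 0.45. With RIPK1inh in astrocytes, Cd274 was -0.53 without the 3 libraries and ran from -0.53 to 1.09. The Cd274 difference of the EAE effect ran from -0.21 to 0.86, and Cd80 between cell types in EAE-RIPK1inh mice from -0.59 to 0.25. Centring moved the median of all genes from -0.05 to -0.34 for microglia against astrocytes in EAE-vehicle mice and from 0.03 to 0.18 for EAE in astrocytes. Depth is unknown, so counting error could not be given, and low values without signal do not show absence.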
